A study of Homo sapiens with 33 samples.

Results

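The effect of all-trans retinoic acid (RA) alone on the transcripts of THP-1 cells was measured at 40 h by comparing 5 RA wells with 6 vehicle wells. These 11 arrays were chosen by their titles and treatment labels from the 33 arrays of the series, and all genes on them were considered. THP-1 cells are an established human line of monocytic leukaemia origin. RA wells were given 20 nM RA at the start and again after 16 h, and were lysed 24 h later. Vehicle wells held 0.1% ethanol for 40 h. Each array came from its own culture well of this line, so p-values measure the spread between wells. The 3 vehicle arrays of array set 2 carry titles of a 0 h control, whereas their treatment label gives 40 h. The other groups used here were 3 wells with 20 nM RA and 5 vehicle wells labelled 16 h (the latter also titled 0 h), 5 wells with 5 ng per ml tumour necrosis factor (TNF) for 24 h, and 5 wells with 20 nM RA for 40 h and TNF for the last 24 h.

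RA is the acid form of vitamin A. It binds retinoic acid receptors in the nucleus, which sit on DNA as dimers with retinoid X receptors at paired copies of a 6-base repeat; binding replaces co-repressors by co-activators, and target genes are transcribed. Some direct targets limit the signal by storing or breaking down retinoids. In myeloid leukaemia cells RA is known for driving maturation, with new surface receptors and adhesion molecules and slower division.

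Signals are given as multiples of the median signal of the same array. The 11 arrays fell into 2 runs of array record numbers in the labels, called array set 1 (3 vehicle and 3 RA) and array set 2 (3 vehicle and 2 RA). Array medians were 32.0 to 45.2 signal units in set 1 and 23.2 to 31.5 in set 2, with vehicle replicate 3 the highest and RA replicate 5 the lowest. The log2 ratio of 3′ to 5′ signals of ACTB, a sign of RNA integrity, was 0.994 to 1.81 in vehicle and 1.03 to 1.89 with RA in set 1, and 0.299 to 0.996 and 0.475 to 0.578 in set 2. Of the markers of the monocytic line, LYZ was at 44.6 to 103 in vehicle and 47.8 to 86.3 with RA, while FCGR1A was at 0.0413 to 1.23 and 0.121 to 1.24, below the filter on low values. Lymphocyte markers passed that filter for 5 of 15 genes and summed to 15 to 23 in vehicle and 10.5 to 23.7 with RA. Erythroid and megakaryocyte markers (5 of 12 above the filter) summed to 94.5 to 181 and 84.9 to 202, epithelial and fibroblast markers (5 of 16) to 60.6 to 110 and 46.2 to 91.3, and neuronal and glial markers (3 of 11) to 32.9 to 78.8 and 28.5 to 61.9. In that order, the brightest members were TFRC (mean 120), PECAM1 (61.2) and MBP (43.1), each of which made up much of its list's sum. Those sums therefore rest largely on 1 gene each and are not a measure of other cell types. No marker in these 4 lists was called, while 1 epithelial and fibroblast marker fell in fits to signals that were not centred on the array median, and after quantile normalization.

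In all, 347 of 12398 genes rose and 171 fell with RA (limma, Benjamini-Hochberg adjusted p under 0.05), which is 2.80% and 1.38% of the genes tested. At least 2-fold changes were seen in 210 rises and 53 falls, and at least 4-fold changes in 76 and 8. The median log2 fold change was 1.16 among the rises and -0.86 among the falls. Every called gene had the same sign in both array sets, and 128 rises and 18 falls were called in each set alone. The calls came from a fit to both sets together, so equal signs follow in part from the selection. In 151 rises and 47 falls the RA arrays lay beyond all vehicle arrays. The groups did not overlap for 1.88% of all genes tested. Here and below, overlap was judged over the wells of both array sets together, without the array set term. The balance of rises and falls depended on the scale: 497 rose and 494 fell on the signal scale without median centring (4.01% and 3.99% of genes), and 512 rose and 553 fell after quantile normalization. No called gene had the opposite sign in either of these. In the 11 fits that each left out 1 array, 232 rises and 84 falls kept their call throughout. Where a gene named below did not, the arrays that ended its call are given.

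**Figure D1:**
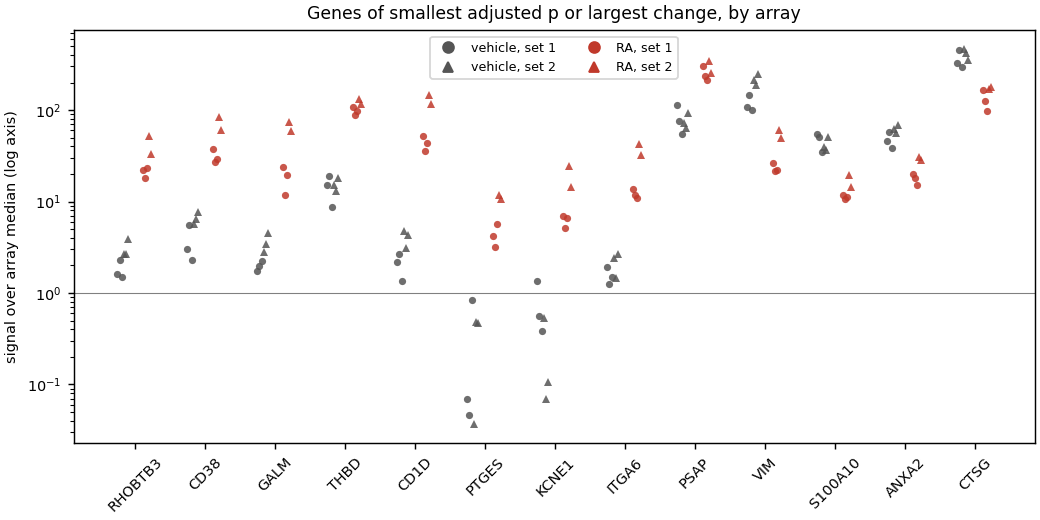
Signal of 13 genes on each of the 11 arrays, as multiples of the array median on a log axis; grey points are vehicle wells, red points RA wells, circles array set 1 and triangles array set 2. RA wells lie above every vehicle well for 9 of the genes and below every vehicle well for VIM, S100A10, ANXA2 and CTSG.

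The smallest adjusted p-value among the rises belonged to RHOBTB3, linked to vesicle transport. Its signal was 1.5 to 3.92 in vehicle (median 2.5) and 22.2, 18, 23.2, 33.2 and 52.7 in the RA wells of replicates 1 to 5, the order used throughout. It rose 12.5-fold (log2 3.65 ± 0.19 SE, n = 5 against 6, adjusted p = 8.77e-16), by 3.56 in set 1 and 3.78 in set 2. All RA wells lay above all vehicle wells. CD38, an ectoenzyme that consumes NAD at the cell surface, was at 2.32 to 7.78 in vehicle (median 5.6) and at 37.9, 26.9, 29.5, 59.9 and 83.3 with RA. GALM, the mutarotase that interconverts the ring forms of galactose, was at 1.75 to 4.5 in vehicle (median 2.53) and 24.1, 11.8, 19.5, 58.6 and 74.7 with RA. It rose 12.5-fold (log2 3.64 ± 0.23, adjusted p = 3.28e-14), and the RA wells of set 2 were the highest.

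Other rises with small adjusted p-values covered membrane signalling, coagulation and transport. NDRG1, a stress- and differentiation-responsive protein, rose 6.87-fold (log2 2.78 ± 0.18), from 10.2 to 16.8 in vehicle (median 12.7) to 71.1, 63.7, 62, 110.4 and 142. THBD, thrombomodulin, which turns thrombin from a clotting enzyme into an activator of protein C, rose 7.71-fold (2.95 ± 0.20) from 8.77 to 19 (median 15.2) to 107, 88.2, 97.7, 116 and 132. Neither gene overlapped between the groups. SLC2A5, the fructose transporter, rose 5.51-fold (2.46 ± 0.19), although 1 of its 3 other probe sets had the opposite sign. SLC5A3, the sodium-coupled carrier of myo-inositol, rose 4.46-fold (2.16 ± 0.17). UBASH3B, a phosphatase that damps signalling of SYK kinases, rose 3.49-fold (1.81 ± 0.14), with 3 of 3 other probe sets in the same direction. PLEKHO1, an adaptor that binds phosphoinositides, rose 11.2-fold (3.48 ± 0.25), FAM117A 3.59-fold (1.84 ± 0.14) and TBL2 4.29-fold (2.10 ± 0.16). Adjusted p-values of these genes ran from 4.82e-14 to 1.89e-11.

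The largest rises began from signals near or under the array median, where the size of a change is uncertain; in 36 rises the vehicle mean was below it. PTGES, which makes prostaglandin E2, was at 0.0370 to 0.841 in vehicle (median 0.270) and at 4.2, 3.21, 5.63, 10.7 and 11.7 with RA. The same held for KCNE1, a potassium channel subunit, at 0.0698 to 1.35 (median 0.460) against 6.89, 5.15, 6.62, 14.5 and 24.3. CD300LB, a receptor of myeloid cells, was at 0.309 to 0.725 (median 0.379) against 5.16, 4.31, 4.89, 11.9 and 19.1 and rose by 4.19 ± 0.44 on the log2 scale (adjusted p = 1.16e-08). In each of the 3 genes every RA well lay above every vehicle well. PTPRN2-AS1, an antisense RNA of a phosphatase gene, rose by 4.04 ± 0.46 (7.01e-08). CD1D, which presents lipid antigens, began above the median, at 1.35 to 4.79 in vehicle (median 2.86), and reached 52.8, 36.1, 43.5, 118 and 146.

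Measured by the difference of mean signal, the leading rises were in abundant transcripts. CHI3L1, a secreted chitinase-like protein of macrophages, went from 188 to 408 in vehicle (median 275) to 778, 541, 579.6, 721 and 675 and rose 2.35-fold (log2 1.24 ± 0.17, adjusted p = 2.91e-06). PSAP, the precursor of the saposins that help lysosomal enzymes degrade sphingolipids, went from 54.4 to 113 (median 74.1) to 307, 235, 211, 258 and 344 and rose 3.49-fold (1.80 ± 0.17, 1.21e-09). The groups did not overlap for either gene. SEL1L3 rose 3.57-fold (1.84 ± 0.16, 6.13e-11). APLP2, a relative of the amyloid precursor protein, rose 2.22-fold (1.15 ± 0.14, 2.32e-07), and its 7 other probe sets had the same sign. TMSB10, a thymosin that binds actin monomers, rose 1.9-fold (0.92 ± 0.17, 0.000232), with overlap between the groups. Within each array set its RA wells lay above the vehicle wells.

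Among the falls, VIM, the vimentin filament, had the smallest adjusted p. Its signal was 101 to 249.5 in vehicle (median 167) and 26.4, 21.6, 21.9, 49.8 and 61.3 with RA, without overlap. S100A10, the partner of annexin A2 on the inner face of the membrane, was at 34.6 to 55.5 (median 44.9) and 11.9, 10.7, 11.2, 14.4 and 19.7. It fell 3.3-fold (log2 -1.72 ± 0.16, adjusted p = 9.05e-10). ANXA2 itself, at 38.4 to 69.1 (median 57) against 20.2, 18.1, 15.2, 28.1 and 30.9, fell 2.42-fold (-1.28 ± 0.15, 1.90e-07). Both members of this complex were lower in every RA well than in every vehicle well. AHNAK, a giant scaffold protein that binds it, fell 2.63-fold (-1.39 ± 0.21, 9.00e-06).

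CTSG, cathepsin G, a protease of the primary granules, fell 2.61-fold (-1.39 ± 0.15, adjusted p = 1.76e-08), from 299 to 466 in vehicle (median 389.9) to 167, 124, 98.3, 177 and 171. It was the 1 call among 12 granule proteins of immature myeloid cells (8.33%, beside 4.18% of all genes tested). Of these 12, 3 fell on the signal scale and after quantile normalization. RHEX, a regulator of erythropoietin signalling, was at 14.4 to 20.2 (median 16.1) and 5.64, 5.63, 5.8, 4.06 and 4.7 and fell 3.35-fold (-1.74 ± 0.22, 3.06e-07). RAB7B, a small GTPase of late endosomes, fell 3.27-fold (-1.71 ± 0.21, 2.01e-07). Neither gene overlapped between the groups. MLC1, a membrane protein best known in astrocytes, fell 2.72-fold (-1.44 ± 0.19), S1PR3, a receptor for sphingosine 1-phosphate, 3.31-fold (-1.73 ± 0.24), FEZ1, an adaptor of axonal transport, 2.54-fold (-1.34 ± 0.19) and TWIST1, a transcription factor of mesenchymal cells, 2.28-fold (-1.19 ± 0.17), with adjusted p-values from 5.98e-07 to 4.75e-06. HSPB7, a small heat shock protein, fell 3.25-fold (-1.70 ± 0.40, 0.00715). ASS1, an enzyme of arginine synthesis, fell 2.11-fold (-1.07 ± 0.30, 0.0295; lost without RA replicate 1, 2 or 3); its vehicle replicate 1 was at 300.2 and its other vehicle wells at 33.9 to 59.1.

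The list named RA response genes of myeloid cells had the largest share of calls among the lists. Its members, like those of the other lists, were chosen with earlier results of these data known. The share is therefore not a test of the list. Of 25 members tested 14 rose and 2 fell, with a median log2 fold change of 1.01 against -0.003 over all genes tested. DHRS3, which returns retinaldehyde to retinol, was at 0.718 to 2.32 in vehicle (median 2.08) and 28.8, 25, 30.3, 39.5 and 53.7 with RA, without overlap. HIC1, a transcriptional repressor, was at 0.0539 to 0.708 (median 0.354) and 2.59, 3.46, 3.87, 11.3 and 14.5, with the RA wells of set 2 the highest. PRAM1, an adaptor of maturing granulocytes, rose 7.91-fold (2.98 ± 0.51, adjusted p = 0.000114) and IRF1, a transcription factor of interferon responses, 2.8-fold (1.49 ± 0.18, 1.65e-07). TGM2, a transglutaminase, rose by 2.48 ± 0.65 on the log2 scale (0.0172; lost without vehicle replicate 3 or 6 or RA replicate 4 or 5), with wells of 3.84, 0.588, 2.38, 7.78 and 8.9. The falls were SLC38A1, a glutamine carrier (-1.23 ± 0.33, 0.0237; lost without vehicle replicate 1 or 2 or RA replicate 1 or 2), and, named after its values were seen, TNFSF10, a death ligand (-0.90 ± 0.26, 0.0433; lost without vehicle replicate 1, 2, 4, 5 or 6 or RA replicate 1, 2 or 3). The count of falls was 0 without vehicle replicate 1 or 2 or RA replicate 1 or 2, 1 without vehicle replicate 4, 5 or 6 or RA replicate 3.

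In the machinery of retinoid signalling itself, DHRS3 was the single call among 13 retinoid enzymes and binding proteins tested (7.69%), and PPARG and NRIP1 rose among 15 receptors and cofactors (13.3%), against 4.18% called over all genes tested. On the signal scale and after quantile normalization 2 receptors and cofactors also fell. PPARG, a nuclear receptor of lipid metabolism that pairs with retinoid X receptors, rose 3.72-fold (1.90 ± 0.28, 9.00e-06), from 1.12 to 4.86 in vehicle (median 2.4) to 8.45, 6.8, 5.4, 12.9 and 14.5. NRIP1, a co-repressor recruited by hormone-bound receptors, rose 2.13-fold (1.09 ± 0.17, 3.50e-05). The receptor genes RARA (log2 -0.21 ± 0.19), RARG (0.54 ± 0.85), RXRA (-0.60 ± 0.19) and RXRB (-0.10 ± 0.20) did not pass the test. CYP26A1, CYP26B1 and RARB, RA targets in many tissues, lay below the filter on low values and were not tested. CYP26A1, which breaks down RA, was at 0.0969 to 0.456 in vehicle (median 0.164) and at 0.141, 0.387, 0.215, 1.58 and 2.3 with RA, where the wells of set 2 were the high ones.

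Promoters were read to show what lies next to the start sites of called genes. The RefSeq table (GRCh38.p14, 250 bases before to 50 after each start) held 425 of the 518 called genes. The 6-base receptor repeat, searched on both strands as AGGTCA and in addition as AGTTCA, with the further forms GGGTCA and in addition GGTTCA, was present in 35.0% of 283 promoters of genes that rose, in 22.5% of 142 of genes that fell, in 32.3% of 10093 of genes tested and in 38.7% of all 27305 promoters. Of the 19 rises named for smallest adjusted p or largest change, 15 had a promoter there and 5 of those held the repeat. A direct pair of such repeats with 5 bases between them, the classical RA response element, contains the single repeat and was found in 22 of all promoters (0.0806%), 4 of genes tested and 1 of a called gene, BATF2. Pairs with 1 or 2 bases between them were also searched. They were found in 15 and 3 promoters of genes tested, and in 0 of genes that rose or fell. BATF2, a leucine zipper factor of interferon responses, was singled out after its values were seen. It rose 5.7-fold (2.51 ± 0.41, adjusted p = 4.75e-05), by 2.54 in set 1 and 2.60 in set 2, without overlap. Its promoter (chr11:64990228-64990527, minus strand) is shown with the pair in capitals, starting 29 bases before the start site, and those of CD38 (chr4:15778078-15778377, plus strand) and CD1D (chr1:158179697-158179996, plus strand), among the leading rises, with the single repeat in capitals, 134 and 194 bases before it. Each is printed 5′ to 3′ on the strand of the gene, and a match describes the letters only.
BATF2: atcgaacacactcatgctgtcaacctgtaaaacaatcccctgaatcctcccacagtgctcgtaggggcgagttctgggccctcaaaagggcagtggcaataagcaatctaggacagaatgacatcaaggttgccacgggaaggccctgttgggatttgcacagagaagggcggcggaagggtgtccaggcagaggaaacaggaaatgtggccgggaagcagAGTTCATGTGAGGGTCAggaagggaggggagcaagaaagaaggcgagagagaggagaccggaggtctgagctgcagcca
CD38: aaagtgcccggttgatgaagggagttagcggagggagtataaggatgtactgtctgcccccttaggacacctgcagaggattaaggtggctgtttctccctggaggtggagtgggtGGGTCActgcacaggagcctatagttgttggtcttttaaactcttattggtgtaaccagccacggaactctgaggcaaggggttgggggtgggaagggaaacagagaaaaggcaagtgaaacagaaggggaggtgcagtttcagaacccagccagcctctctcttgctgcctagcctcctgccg
CD1D: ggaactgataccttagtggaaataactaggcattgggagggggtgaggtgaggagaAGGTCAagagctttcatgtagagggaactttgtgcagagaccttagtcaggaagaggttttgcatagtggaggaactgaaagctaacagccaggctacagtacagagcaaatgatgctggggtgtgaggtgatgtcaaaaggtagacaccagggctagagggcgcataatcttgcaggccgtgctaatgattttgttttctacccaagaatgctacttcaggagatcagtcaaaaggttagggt

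Surface markers of monocytes and macrophages rose in 14 of 45 members tested and fell in none, with a median of 0.40. That is 31.1% called, beside 4.18% of all genes tested. There were 2 falls on the signal scale and after quantile normalization. Bulk values cannot tell fewer cells of a type from less RNA per cell. CCR1 and CCR2, receptors for CC chemokines, rose 3.85-fold (1.95 ± 0.20, adjusted p = 3.39e-09) and 2.63-fold (1.39 ± 0.16, 7.41e-08). FLT3, a growth factor receptor of progenitors and dendritic cells, was at 1.34 to 5.03 in vehicle (median 2.79) and 13.7, 12, 8.87, 22.5 and 24.4 with RA and rose 6.15-fold (2.62 ± 0.24, 3.09e-10) without overlap. CD209, a C-type lectin of dendritic cells, rose 4.08-fold (2.03 ± 0.23, 4.17e-08). CD36, a scavenger receptor for lipids, rose 2.87-fold (1.52 ± 0.21, 2.67e-06), with 2 of its 3 other probe sets in the same direction. CD14, the co-receptor for bacterial lipopolysaccharide, rose from low signals, at 0.144 to 1.78 (median 1.04) against 1.08, 2.32, 1.6, 3.13 and 4.12, and overlapped between the groups. Receptors for chemokines, cytokines and growth factors rose in 7 of 37 and fell in 2 (24.3% called, beside 4.18% of all genes tested). The rises were 4 without RA replicate 5. The falls were 0 without RA replicate 3 or 4. They were 1 without vehicle replicate 1, 2, 3, 4, 5 or 6 or RA replicate 2. The rises included IL10RA, the interleukin 10 receptor (2.02-fold, 1.02 ± 0.18, 0.000205). The falls, named after their values were seen, were IL17RA (-0.56; lost without vehicle replicate 1 or RA replicate 2, 3 or 4), the interleukin 17 receptor, and PRLR (-2.42; lost without vehicle replicate 2, 3, 4, 5 or 6 or RA replicate 3 or 4), the prolactin receptor, as log2 fold changes.

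Integrins and adhesion molecules rose in 8 of 32 tested and fell in 3 (34.4% called, beside 4.18% of all genes tested). ITGA6, the laminin-binding alpha 6 subunit, had the largest change. Its signal was 1.26 to 2.65 in vehicle (median 1.72) and 13.9, 11.9, 11.1, 32.6 and 42.2 with RA, and it rose 11.6-fold (3.54 ± 0.38, adjusted p = 1.21e-08) without overlap. Members of the leukocyte beta 2 family rose together. ITGAL rose 2.56-fold (1.36 ± 0.20, 1.32e-05) and ITGAM 2.28-fold (1.19 ± 0.17, 3.34e-06). ITGAX rose 2.01-fold (1.01 ± 0.25, 0.00922) and their shared partner ITGB2 1.68-fold (0.75 ± 0.17, 0.00476). Each overlapped between the groups. Within each array set the RA wells of ITGAM lay above the vehicle wells, while ITGAL overlapped in set 1. The falls were CD9, a tetraspanin (-1.69 ± 0.30, 0.000154; its other probe set had the opposite sign), and, named after their values were seen, PLXND1 (-0.62 ± 0.15, 0.0103) and CD44, the hyaluronan receptor (-0.64 ± 0.16, 0.0115; lost without RA replicate 2). The count of falls was 5 without RA replicate 5, 5 on the signal scale and 6 after quantile normalization.

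Lysosomal hydrolases and membrane proteins rose in 11 of 45 members tested and fell in none, with a median of 0.25. That is 24.4% called, beside 4.18% of all genes tested. The count of rises was 5 without RA replicate 5; after quantile normalization 14 rose and 1 fell. Besides PSAP, CTSD, the aspartic protease cathepsin D, rose 2.61-fold (1.38 ± 0.21, adjusted p = 1.74e-05), GRN, the progranulin precursor, 2.26-fold (1.17 ± 0.17, 5.62e-06) and CTSS, a cysteine protease that trims the class II invariant chain, 1.87-fold (0.90 ± 0.16, 0.000124). CTSS was at 29.9 to 40.6 in vehicle (median 34.6) and 63.5, 51.1, 62.9, 65.5 and 90.6 with RA, without overlap. CTSD and GRN overlapped, with RA replicates 4 and 5 the high wells.

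Genes of MHC class I antigen processing rose in 6 of 21 tested and fell in none, with a median of 0.38. That is 28.6% called, beside 4.18% of all genes tested. Of the 21, 20 had an estimate above 0, as did 20 on the signal scale and after quantile normalization, where 12 and 14 were called; of all 12398 genes, 6152 had an estimate above 0. The immunoproteasome subunits PSMB9 (1.67-fold, 0.74 ± 0.17, adjusted p = 0.00615) and PSMB10 (1.57-fold, 0.65 ± 0.14, 0.00381) rose, as did HLA-F (0.70 ± 0.15, 0.00272), where near-identical HLA sequences make the assignment uncertain and 1 of 2 other probe sets had the opposite sign. The list's mean lay 4.75 to 5.69 log2 above the array median in vehicle wells and 5.24 to 6.44 in RA wells. On the signal scale these means did not overlap, at 10.25 to 10.51 in vehicle and 10.69 to 10.98 with RA. Among 14 class II and CD1 genes, 4 rose: CD1D, CTSS, HLA-DRA (0.92 ± 0.26, 0.0302; lost without vehicle replicate 1 or 3 or RA replicate 1, 4 or 5) and HLA-DPA1 (0.78 ± 0.23, 0.0411; lost without vehicle replicate 1, 2, 3, 4 or 6 or RA replicate 4 or 5). The count was 2 without vehicle replicate 1 or 3 or RA replicate 4 or 5. The 4 calls were 28.6% of the class II and CD1 genes tested, beside 4.18% of all genes tested.

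**Figure D2:**
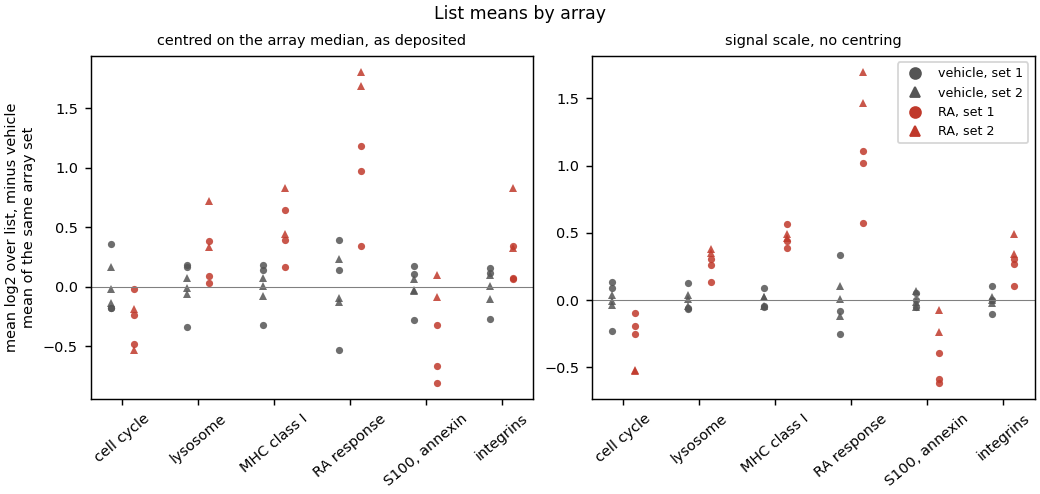
Mean log2 value over the tested members of 6 lists on each array, minus the mean of the vehicle arrays of the same set; grey is vehicle, red RA, circles set 1 and triangles set 2. One panel uses the values as deposited, the other the signal scale without median centring, on which the MHC class I means are 10.25 to 10.51 in vehicle and 10.69 to 10.98 with RA.

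Eicosanoid genes rose in 5 of 22 tested and fell in none (22.7% called, beside 4.18% of all genes tested). On the signal scale and after quantile normalization 5 rose and 3 fell. ALOX5AP, which hands arachidonic acid to 5-lipoxygenase, was at 13.2 to 41.9 in vehicle (median 31.9) and 128, 90.1, 90.3, 218 and 285 with RA. It rose 5.63-fold (2.49 ± 0.20, adjusted p = 2.33e-11) without overlap. LTB4R, the leukotriene B4 receptor, rose 3.25-fold (1.70 ± 0.22, 5.98e-07) and PTGS1, cyclooxygenase 1, 2.19-fold (1.13 ± 0.15, 1.20e-06). LTA4H, named after its values were seen, makes leukotriene A4 into B4 and rose 1.45-fold (0.53 ± 0.16, 0.0387; lost without vehicle replicate 3, 4 or 6 or RA replicate 1, 3, 4 or 5).

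Scavenger receptors and lipid handling genes rose in 8 of 35 tested and fell in 2 (28.6% called, beside 4.18% of all genes tested). APOC1, an apolipoprotein of macrophages, rose 2.41-fold (1.27 ± 0.18, adjusted p = 6.26e-06), from 10.3 to 14.3 in vehicle (median 10.7) to 26.1, 21.2, 21.4, 34.2 and 36. ACSL1, which activates long-chain fatty acids, rose 2.49-fold (1.32 ± 0.23, 0.000134). Neither gene overlapped between the groups. The falls, named after their values were seen, were SGMS2, a sphingomyelin synthase (-3.23 ± 0.72, 0.00351), and CPT1A, which loads fatty acids for entry into mitochondria (-0.82 ± 0.19, 0.00671). Sterol and fatty acid synthesis had 1 call in 27 (3.7%, beside 4.18% of all genes tested). It was EBP, an isomerase of cholesterol synthesis, which fell 1.61-fold (-0.69 ± 0.16, 0.00647). On the signal scale 5 members fell, and 6 after quantile normalization.

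Complement, coagulation and Fc receptor genes rose in 6 of 25 tested and fell in none (24% called, beside 4.18% of all genes tested). There was 1 fall on the signal scale and after quantile normalization. FCER1G, the signalling chain of Fc receptors, rose 2.17-fold (1.12 ± 0.17, adjusted p = 1.72e-05), from 79.8 to 164 in vehicle (median 128) to 223, 164, 179, 397 and 432. SERPING1, the inhibitor of complement C1, rose by 2.44 ± 0.49 on the log2 scale (0.00113) and CFP, properdin, 2.56-fold (1.36 ± 0.24, 0.000209). Of 18 genes of the NADPH oxidase and microbial killing, 2 rose (11.1%, beside 4.18% called of all genes tested). On the signal scale 4 rose and 1 fell, and 6 rose and 3 fell after quantile normalization. NCF1, a cytosolic subunit that organises the oxidase, rose 5.36-fold (2.42 ± 0.22, 2.98e-10), from 5.38 to 23.5 (median 16.7) to 45, 33.2, 38.3, 158 and 195, and nearly identical copies of the gene make the assignment uncertain. CYBB, the catalytic subunit, rose 1.75-fold (0.80 ± 0.23, 0.031; lost without vehicle replicate 2, 4 or 6 or RA replicate 1, 3 or 5). Of the SRC, SYK and TEC kinase signalling list, 5 of 31 rose and 1 fell (19.4% called, beside 4.18% of all genes tested). In this list 8 rose and 3 fell on the signal scale, and 9 rose and 3 fell after quantile normalization. FGR, a SRC kinase of maturing myeloid cells, rose 3.94-fold (1.98 ± 0.21, 7.29e-09), and FYN fell 2.28-fold (-1.19 ± 0.26, 0.00296). The list's other rises were FCER1G, PRAM1 and, named after their values were seen, PIK3CG (0.69) and LYN (0.61; lost without vehicle replicate 3 or 6 or RA replicate 1, 4 or 5), as log2 fold changes.

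The S100 and annexin list had the largest share of falls: 5 of 18 tested fell and none rose. That is 27.8% called, beside 4.18% of all genes tested. S100A8, a subunit of calprotectin, fell 3.11-fold (-1.64 ± 0.26, adjusted p = 4.06e-05), from 6.65 to 42.5 in vehicle (median 21.9) to 2.4, 1.43, 3.28, 15.6 and 21.5. The RA wells of set 1 lay below all vehicle wells. Those of set 2 lay below the vehicle wells of set 2 (31.4 to 42.5) and above those of set 1 (6.65 to 12.5). S100A12 (-1.49 ± 0.43, 0.0347; lost without vehicle replicate 1, 2, 4 or 5 or RA replicate 2, 3 or 4) and, named after its values were seen, S100A6 (-0.56 ± 0.16, 0.0351; lost without vehicle replicate 1, 2, 5 or 6 or RA replicate 1, 2, 3 or 4) also fell. The count was 3 without vehicle replicate 1, 2 or 5 or RA replicate 2, 3 or 4. The list's mean was 4.04 to 4.49 log2 above the array median in vehicle and 3.50 to 3.99 with RA in set 1. In set 2 the groups overlapped, at 4.755 to 4.854 and 4.703 to 4.89. On the signal scale the set 2 means were 9.61 to 9.73 in vehicle and 9.43 to 9.59 with RA. For RA at 16 h the list's median was -0.356, beside -0.173 over all genes. For RA plus TNF against TNF it was -0.013, beside 0.045. Of 39 cytoskeletal genes 4 rose and 4 fell (20.5% called, beside 4.18% of all genes tested). Both on the signal scale and after quantile normalization 4 rose and 8 fell. The calls included VIM and GSN, gelsolin, which severs actin filaments (it fell 2.01-fold, -1.01 ± 0.14, 1.56e-06), and TMSB10 and PLEK, pleckstrin (it rose 2.31-fold, 1.21 ± 0.16, 1.28e-06). The others, named after their values were seen, were the rises of MARCKSL1 (0.90) and TLN1 (0.83; lost without vehicle replicate 3 or 5 or RA replicate 1, 4 or 5), talin, and the falls of LMNA (-0.78), a nuclear lamin with 1 of 4 other probe sets of opposite sign, and TUBB6 (-0.61), a tubulin, as log2 fold changes.

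**Figure D3:**
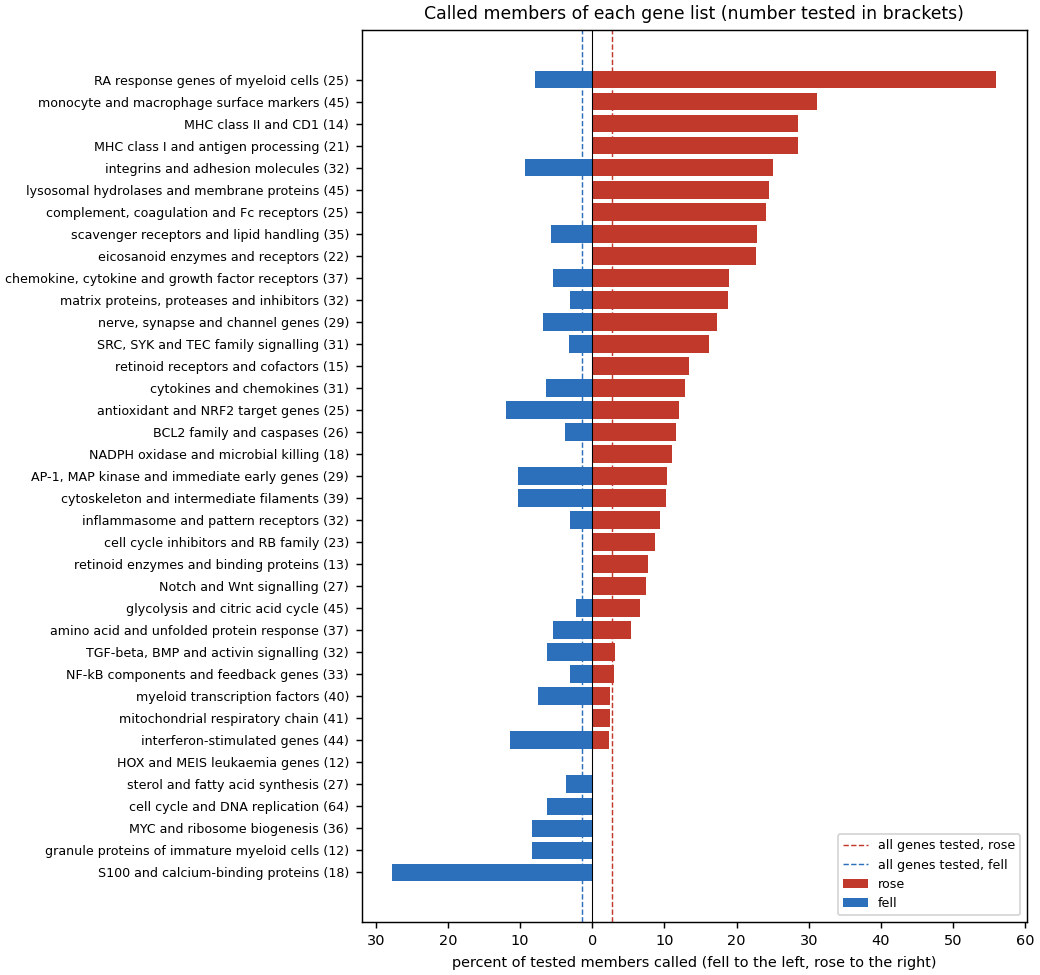
Percent of the tested members of each gene list that rose or fell with RA at 40 h; dashed lines are the shares over all genes tested, 2.80% and 1.38%. The RA response list has the longest bar of rises (14 of 25) and the S100 list the longest bar of falls (5 of 18). Members of the lists were chosen with earlier results of these data known.

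While 6152 of all 12398 genes had an estimate above 0 with RA, each of the 64 cell cycle and DNA replication genes tested was below 0. Few of the 64 passed the test (6.25%, beside 4.18% of all genes tested). The median was -0.32, and 4 fell: CENPF (-0.52 ± 0.15, adjusted p = 0.0314; lost without vehicle replicate 2, 4, 5 or 6 or RA replicate 2, 3 or 4), PLK1 (-0.56 ± 0.17, 0.0433; lost without vehicle replicate 2, 4, 5 or 6 or RA replicate 1, 2, 3 or 4), CENPA (-0.69 ± 0.21, 0.0484; lost without vehicle replicate 3, 4, 5 or 6 or RA replicate 2, 4 or 5) and CDC45 (-0.75 ± 0.22, 0.0491; lost without vehicle replicate 2, 3, 4 or 6 or RA replicate 1, 2, 3 or 4). They serve chromosome segregation and the start of replication. The count was 0 without vehicle replicate 4 or 6 or RA replicate 2 or 4, 1 without vehicle replicate 2 or 5 or RA replicate 3, 2 without RA replicate 1. All 64 estimates were below 0 on the signal scale and after quantile normalization as well, where 18 and 21 fell. For RA at 16 h the list's median was -0.49, beside -0.173 over all genes. For RA plus TNF against TNF it was -0.013, beside 0.045 over all genes. The list's mean lay 4.16 to 5.24 log2 above the array median in vehicle and 3.86 to 4.90 with RA. On the signal scale it was 9.33 to 9.997 in vehicle and 9.31 to 9.47 with RA, with vehicle replicate 1 the lowest vehicle well and the one within the RA range. Of 23 inhibitors of the cycle 2 rose (1 also fell on both other scales), which is 8.7% called beside 4.18% of all genes tested. They were SESN3, a stress-induced sestrin (0.98 ± 0.24, 0.00979; lost without RA replicate 3), and CDKN1A, the p21 inhibitor (0.64 ± 0.17, 0.0254; lost without vehicle replicate 2 or 4 or RA replicate 4 or 5). CDKN1B, the p27 inhibitor, was at 11.7 to 24.9 in vehicle (median 20) and 16.5, 11.5, 20, 19.3 and 28.7 with RA and did not pass the test (0.00 ± 0.19).

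Of 40 myeloid transcription factors 1 rose and 3 fell, which is 10% called beside 4.18% of all genes tested. Both on the signal scale and after quantile normalization 2 rose and 6 fell. RUNX2 rose (0.60 ± 0.16, 0.0201; lost without vehicle replicate 5 or RA replicate 1 or 5). FOS (-0.83 ± 0.22, 0.0184; lost without vehicle replicate 2), CEBPD (-0.56 ± 0.16, 0.0298; lost without vehicle replicate 1 or 6 or RA replicate 1, 2, 3 or 4) and MYC (-0.51 ± 0.15, 0.0373; lost without vehicle replicate 2, 4, 5 or 6 or RA replicate 2, 3, 4 or 5) fell. SPI1, the master factor of the lineage, was at 4.18 to 21.9 in vehicle (median 12.4) and 8.04, 4.57, 7.23, 16.8 and 22.9 with RA and did not pass the test (0.03 ± 0.22).

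Interferon-stimulated genes fell in 5 of 44 tested and rose in 1 (13.6% called, beside 4.18% of all genes tested). The falls were TRIM22 (-1.03 ± 0.24, adjusted p = 0.00487), USP18 (-0.93 ± 0.23, 0.0117; lost without RA replicate 3), MX1 (-0.83 ± 0.21, 0.0119; lost without RA replicate 3), XAF1 (-0.84 ± 0.21, 0.0125; lost without vehicle replicate 1 or 2 or RA replicate 2 or 3) and, named after its values were seen, EIF2AK2 (-0.63 ± 0.19, 0.048; lost without vehicle replicate 1, 2, 4 or 5 or RA replicate 1, 2, 3 or 4). MX1, TRIM22 and EIF2AK2 block virus replication, and USP18 damps the interferon signal. LGALS3BP, also named after its values were seen, rose 2.47-fold (1.31 ± 0.35, 0.022; lost without vehicle replicate 2 or 6 or RA replicate 4 or 5). The sets differed in these calls: within set 1 alone 10 members fell and none rose, and within set 2 alone none fell and 4 rose. The count of falls was 1 without RA replicate 3, 3 without vehicle replicate 1 or 2 or RA replicate 2, 9 without RA replicate 5. On the signal scale 3 rose and 8 fell, and after quantile normalization 3 rose and 9 fell.

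Of 31 cytokines and chemokines 4 rose and 2 fell (19.4% called, beside 4.18% of all genes tested). IL1B rose 2.24-fold (1.17 ± 0.29, adjusted p = 0.0117). CCL2, which attracts monocytes, rose 3.22-fold (1.69 ± 0.37, 0.00277), from 2.12 to 4.41 in vehicle (median 3.42) to 6.56, 3.88, 2.63, 36.5 and 37.4. RA replicates 1, 4 and 5 lay above all vehicle wells and replicates 2 and 3 within them. CCL24 (2.56 ± 0.74, 0.0358; lost without vehicle replicate 2, 4 or 6 or RA replicate 1, 2, 4 or 5) and CXCL8, which attracts neutrophils (1.13 ± 0.33, 0.0384; lost without vehicle replicate 3, 4, 5 or 6 or RA replicate 4 or 5), also rose. The falls were TNFSF10 and IL1RN, the antagonist of interleukin 1 (-0.92 ± 0.23, 0.012; lost without RA replicate 3), for which 1 of 2 other probe sets had the opposite sign. The rises were 2 without vehicle replicate 6 or RA replicate 4 or 5, and the falls 0 without RA replicate 3, 1 without vehicle replicate 1, 2, 4, 5 or 6 or RA replicate 1 or 2. NF-kB components were called in 2 of 33, or 6.06% beside 4.18% of all genes tested. REL rose (0.66 ± 0.16, 0.00825). NFKBIA, the inhibitor that retains NF-kB in the cytoplasm, fell (-0.92 ± 0.17, 0.0003), although its other probe set had the opposite sign. The median over the probe sets of NFKBIA gave 0.57 (adjusted p = 0.373).

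Other lists also held large changes, beside 4.18% called of all genes tested. Of 32 matrix proteins, proteases and inhibitors 6 rose and 1 fell (21.9%). Of 29 nerve, synapse and channel genes 5 rose and 2 fell (24.1%). The BCL2 family and caspases had 3 rises and 1 fall in 26 (15.4%), and inflammasome and pattern receptors 3 and 1 in 32 (12.5%). AP-1 and MAP kinase genes had 3 and 3 in 29 (20.7%), and Notch and Wnt genes 2 rises in 27 (7.41%). AKR1C1 and AKR1C2, reductases of steroids whose near-identical sequences make the assignment uncertain, rose 4.36-fold (2.12 ± 0.21, adjusted p = 1.94e-09) and 4.22-fold (2.08 ± 0.22, 9.28e-09). NQO1, a quinone reductase of the same antioxidant list, fell 2.06-fold (-1.05 ± 0.20, 0.000624), and in that list 3 of 25 rose and 3 fell, the others being GSTO1 (0.71), ME1 (-0.85) and, named after its values were seen, MGST3 (-0.64; lost without vehicle replicate 1 or 5 or RA replicate 2 or 3), as log2 fold changes; on the signal scale 4 rose and 4 fell, and after quantile normalization 4 rose and 5 fell. MMP2, a gelatinase, rose 5.86-fold (2.55 ± 0.23, 1.59e-10), from 1.54 to 2.93 in vehicle (median 2.57) to 8.89, 6.58, 8.88, 23.7 and 32.6. BCL2A1, a survival protein, rose 5.87-fold (2.55 ± 0.29, 5.07e-08), while BCL2 fell 2.03-fold (-1.02 ± 0.18, 0.000203), with 1 of its 2 other probe sets of opposite sign. TLR5, the flagellin receptor, rose by 2.86 ± 0.52 on the log2 scale (0.000231), NOTCH2 2.16-fold (1.11 ± 0.16, 9.66e-06) and DUSP6, a phosphatase of ERK kinases, 2.21-fold (1.14 ± 0.18, 3.83e-05). Calls made up 2.44% of the respiratory chain (1 rose of 41; 3 rose on the signal scale and 4 after quantile normalization), 8.89% of glycolysis and citric acid cycle (3 rose and 1 fell of 45) and 8.33% of MYC and ribosome biogenesis (3 fell of 36; 1 also rose on both other scales), beside 4.18% of all genes tested. They were, as log2 fold changes, NDUFA8 (0.55; lost without vehicle replicate 3, 4 or 6 or RA replicate 1, 4 or 5) in the first, SLC2A5, SLC2A6 (0.73; lost without vehicle replicate 3, 4, 5 or 6 or RA replicate 1, 3 or 5), HK3 (1.68; lost without vehicle replicate 1, 2, 3, 4, 5 or 6 or RA replicate 1, 2, 4 or 5) and ME1 in the next, and MYC, MXI1 (-0.81) and MXD3 (-0.86; lost without vehicle replicate 1, 2, 4, 5 or 6 or RA replicate 1, 2, 3 or 4) in the last, and the 12 HOX and MEIS genes held 0 in limma (2 falls on both other scales).

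The difference of the RA effect between the array sets was tested with an interaction term. It passed for 28 of 12398 genes (0.226%), in each with a higher value in set 2, and its median over all genes was 0.25. Of genes called for RA, 7 were among them: CCL2 (0.54 in set 1, 3.31 in set 2), MAFF, a small MAF factor (0.75 and 3.33), CXCL8 (0.12 and 2.499), CD300A, an inhibitory receptor (0.91 and 2.70), FMNL2, a formin of actin assembly (2.68 and 4.91), SLC38A1 (-2.21 and -0.09) and KCNE1 (3.22 and 6.88). Their adjusted p-values ran from 0.000333 to 0.0390. The count was 2 without RA replicate 5, 5 without vehicle replicate 4, 6 without RA replicate 3 or 4, 15 to 17 without vehicle replicate 1 or 6 or RA replicate 2, 46 without RA replicate 1 and 166 without vehicle replicate 3. The ACTB ratio and the array medians differ between the sets as given above, and their part in this was not tested.

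The RA wells harvested at 16 h share no array with those at 40 h. At 16 h 2.67% of 12451 genes were called (1.47% rose and 1.20% fell). Of the 346 rises at 40 h with a value there, 335 had the same sign at 16 h (96.8%), as did 165 of 171 falls (96.5%), against 60.8% of all genes. Called in the same direction were 164 rises and 42 falls, and 0 were called in the opposite one. The median change at 16 h was 0.96 for the rises and -0.58 for the falls, beside -0.17 over all genes. RHOBTB3 (3.11 ± 0.23 at 16 h), CD38 (2.86), GALM (3.20), THBD (2.62) and VIM (-1.88) lay near their 40 h values, while CD14 was at -0.19, HLA-DRA at 0.02 and LGALS1, a galectin that fell at 40 h (-0.79 ± 0.19, 0.00774), at 0.09. The test of the difference between the times called 0 of 12451 genes in limma (721 at an unadjusted p under 0.05, smallest adjusted p = 0.834), so these genes are not shown to differ.

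With TNF present, RA was compared by the 5 wells with RA plus TNF against the 5 with TNF, which share no array with the RA and vehicle wells. There 7.31% of genes were called: 4.60% rose and 2.71% fell. The sign was the same for 330 of the 347 rises (95.1%) and 154 of the 171 falls (90.1%), against 62.3% of all genes, and 239 and 88 were called in the same direction. The opposite call was made for 1 rise and 1 fall: DDX60L, a helicase relative named after its values were seen, rose with RA alone (0.65 ± 0.19, adjusted p = 0.0405; lost without vehicle replicate 3, 4 or 6 or RA replicate 2, 3, 4 or 5) and fell with TNF (-0.87 ± 0.20), and CEBPD did the reverse. The RA effect with and without TNF differed for 53 of 12398 genes (0.427%), with a higher value under TNF for 33 (0.266%) and a lower one for 20 (0.161%), and 24 of the 53 were called for RA alone. AKR1C1 was at -0.37 ± 0.22 with TNF (difference -2.49 ± 0.30, adjusted p = 1.15e-05) and AKR1C2 at -0.33 ± 0.23 (-2.41 ± 0.32, 3.67e-05). The rise of PLEKHO1 was 1.87 ± 0.26 with TNF (difference -1.61 ± 0.36, 0.0308). Larger with TNF were the effects on G0S2, an inhibitor of lipolysis (1.01 ± 0.22 without and 3.24 ± 0.23 with TNF, difference adjusted p = 0.000166), EMP2, a membrane protein (0.66 ± 0.20 and 2.52 ± 0.21, 0.000358; its call without TNF was lost without vehicle replicate 3, 4, 5 or 6 or RA replicate 1, 4 or 5), and SLA, an adaptor that damps SRC signalling (1.79 ± 0.19 and 3.48 ± 0.20, 0.000958). CEBPD, which fell with RA alone, was at 0.77 ± 0.16 with TNF (difference 1.33 ± 0.22, 0.00145). The count of 53 was 30 without RA replicate 3, 34 without RA replicate 1 and 80 without RA replicate 5.

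**Figure D4:**
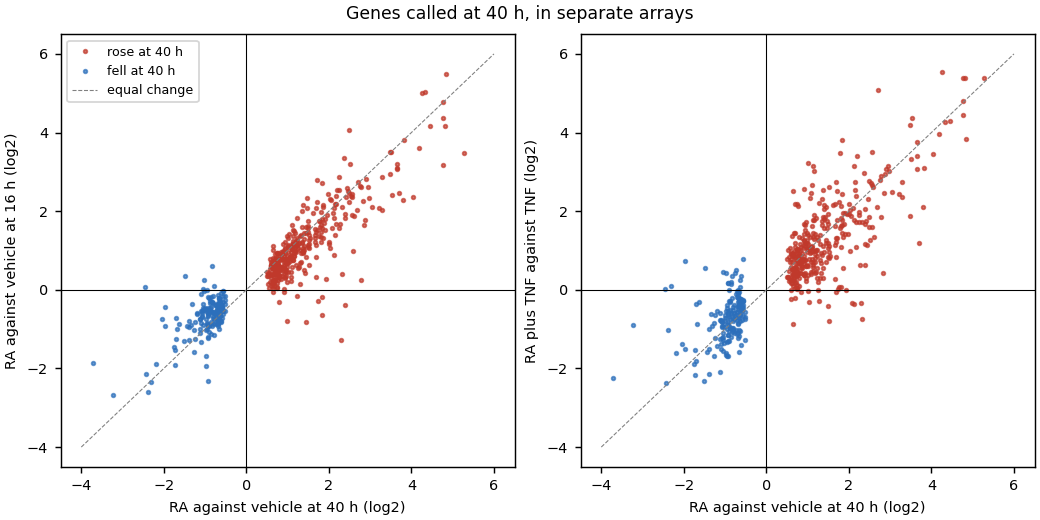
Log2 fold changes of the genes called at 40 h (horizontal axes) against their changes between other wells: RA against vehicle at 16 h in one panel and RA plus TNF against TNF in the other. The arrays with TNF were part of the 40 h fit and shared its filter, estimate of the spread and array set term. Most points have equal signs on both axes, 335 of 346 rises at 16 h and 330 of 347 rises with TNF.

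**Figure D5:**
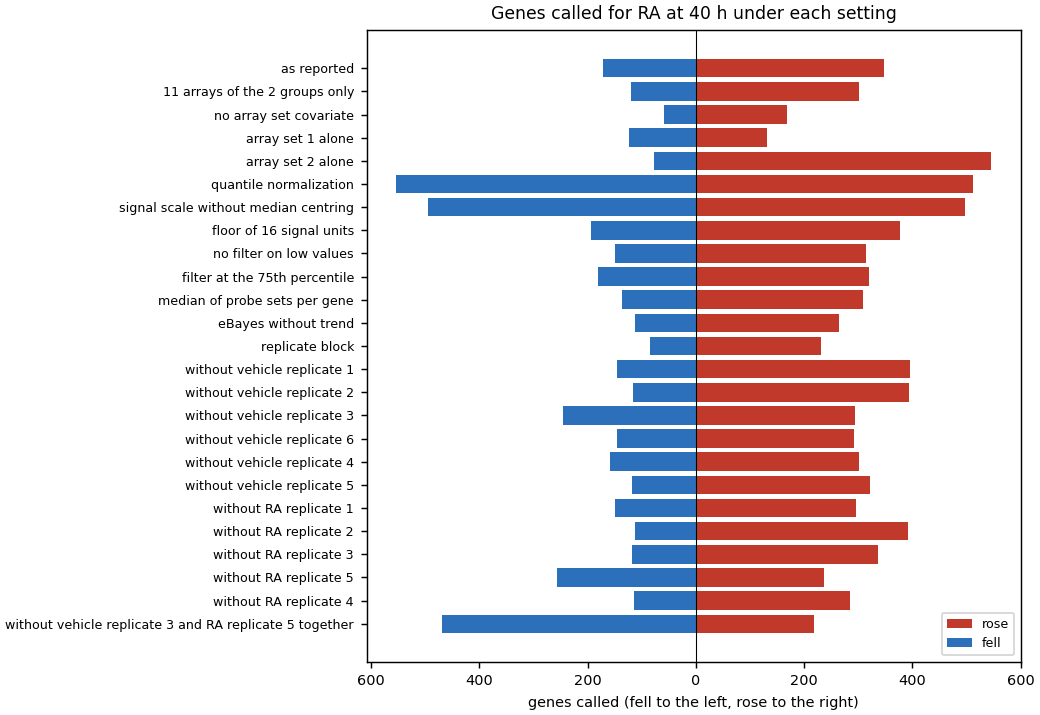
Number of genes that rose and fell with RA at 40 h under each way of processing and with each array left out. The rises range from 131 (array set 1 alone) to 545 (array set 2 alone), and the falls from 58 (no array set term) to 553 (quantile normalization).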

How the data were processed

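Affymetrix HG-U133 Plus 2 arrays were used to measure RNA, and signals were made with GCOS software, per the submitters' processing notes, which as seen here give no version. The deposited log2 values are ratios of each signal to the median of its own array; this scale was read from the values. Signal units were recovered from it: 100% of signals under 8 units were within 0.006 of a multiple of 0.1. Such scaling cannot show changes in total RNA per cell. The number of arrays limits the precision.

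Of 54675 probe sets, 41091 with a single gene symbol in the platform annotation were kept (1801 had several, 11783 none, controls included). Each of 19775 genes took its probe set of highest mean signal, and genes whose mean signal was under the 50th percentile of probe sets (0.882 times the array median) were removed, which left 12398. Linear models over the 21 arrays of the vehicle, RA, TNF and RA plus TNF groups, with the array set as covariate, were fitted with limma 3.58.1 (R 4.3.3) with eBayes and an intensity trend (16 residual degrees of freedom). Calls were made at a Benjamini-Hochberg adjusted p under 0.05 over all genes tested. The 16 h comparison and its difference from 40 h used the RA and vehicle arrays of both times. The scripts were tested on simulated data. Errors are standard errors.

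Named genes were those of smallest adjusted p, of largest change with the brighter group above 4 times the array median, and of largest signal difference in each direction, up to 4 called members of each gene list, a set followed in any case, and the leading calls of each difference between effects. Exceptions are marked in the text. The members and lists were chosen with earlier results of these data known. Of 1368 distinct list genes 1243 had a probe set and 1043 were tested. Promoters were matched by symbol. The line markers CD33 and CD68 were not analysed here. Other normalizations, filters and left-out arrays were tried.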

Additional observations from a re-analysis of the deposited data

Results flagged for a closer look

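In 12 genes 1 vehicle well stood apart from the other 5 by Dixon's criterion, which chance alone meets in a small share of groups. The values are multiples of the array median. Vehicle replicate 3 had the highest median, 45.2 signal units against 27.0 to 36.0 in the other vehicle wells. A high median lowers such multiples, and its part in the low values of that well was not tested. Vehicle replicate 3 was low for CAPN2 (94.8, others 149 to 176), PLEK (21.6, others 36.0 to 46.2), PRAM1 (0.157, others 1.14 to 2.87), SLC2A6 (1.83, others 4.00 to 5.15) and HSPA5 (86.6, others 132 to 150). Vehicle replicate 1 was high for ASS1 (300, others 33.9 to 59.1) and FYN (39.2, others 10.9 to 14.5) and low for IL1B (0.353, others 1.80 to 3.12) and CDC45 (5.14, others 10.6 to 14.1). Vehicle replicate 6 was high for SYT2 (1.40, others 0.105 to 0.181) and DTX4 (3.72, others 1.19 to 1.80). Vehicle replicate 4 was low for DHRS3 (0.717, others 1.87 to 2.32).

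The RA effect under TNF minus that without TNF passed the test of the difference in limma for 13 named genes. On the log2 scale it was -2.49 for AKR1C1, -2.41 for AKR1C2 and -1.61 for PLEKHO1. It was 2.22 for G0S2, 2.02 for CXCL8, 1.86 for EMP2, 1.85 for IL1B, 1.69 for SLA, 1.51 for NQO1, 1.36 for NRIP1, 1.35 for RAB7B, 1.33 for CEBPD and 1.10 for NFKBIA.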

How the results depend on the processing

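The count of 347 rises was 168 without the array set covariate, 131 in array set 1 alone and 545 in array set 2 alone. The count of 171 falls was 58 without the covariate, 78 in array set 2 alone, 553 after quantile normalization, 494 on the signal scale without median centring and 113 without the intensity trend. Without vehicle replicate 3 and RA replicate 5, the arrays of highest and lowest median (an alternative chosen after seeing the data), 219 rose and 468 fell. Leaving out 1 array at a time gave 236 (without RA replicate 5) to 396 rises and 112 (without RA replicate 2) to 256 falls, 2 to 166 genes for the difference between array sets and 30 to 80 for the difference with TNF, which was 189 after quantile normalization. The difference between 40 h and 16 h called 0 genes in limma under every setting run. With a replicate block, fitted to the 11 vehicle and RA arrays alone, 232 genes rose and 84 fell. Of these, 302 were called in the same direction in the reported fit. Those 11 arrays without the block gave 301 rises and 120 falls. Taken as deviations from the mean of their group and array set, same-numbered wells correlated at -0.037 to 0.076. Differently numbered wells of a set correlated at -0.076 to 0.048. With 2 RA wells in set 2, their deviations are equal in size and opposite in sign by construction. With 3 RA wells in set 1 and 2 in set 2, these values cannot tell whether same-numbered wells were prepared together. Over the 139 named genes that were called, 104 kept the call in each of the 11 fits without 1 array, 104 with the replicate block and 59 under every setting; 54 lost it without the covariate. NFKBIA reversed to 0.57 (adjusted p = 0.373) with the median of its probe sets, and the causes of these shifts were not tested. Signals near the array median limit the size of the largest changes.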
